A study of Mus musculus with 4 samples.

Results

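The genes of prolactin, growth hormone and cytokine receptor signalling in mouse islets were compared between 2.8 mM and 16.8 mM glucose. The 10 genes, of 24157 genes and lncRNAs in the deposited table, were taken by symbol, from a list chosen with earlier results of these data known. They were the receptors *Prlr*, *Ghr*, *Cntfr*, *Lifr* and *Il6st*, the transcription factors *Stat5a* and *Stat5b*, and the feedback inhibitors *Cish*, *Socs2* and *Socs3*. Where the table held several transcript entries of a gene, the entry with the highest mean over the 4 libraries was used. At 16.8 mM glucose the prolactin receptor gene and all 3 feedback inhibitor genes were higher, *Stat5b* was lower, and none of the other 4 receptor genes was higher.

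Islets came from male C57bl6 mice of 3 months of age and were pooled. They stood overnight at 11 mM glucose, then 2 h at 2.8 mM, and were then kept at 2.8 mM (low glucose) or 16.8 mM (high glucose), with 2 libraries of 100 islets in each group. The sample labels give 2 h at 2.8 mM and 12 h at 16.8 mM, whereas the series design and the study's methods give 12 h for both. If the labels are right, time and glucose cannot be told apart. As all libraries came from 1 pool of whole islets, p-values measure only the spread between these samples, and fewer cells of a type cannot be told apart from less RNA per cell.

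Prolactin and growth hormone bind single-chain receptors of the class I cytokine family, which activate the kinase JAK2 and, through it, the transcription factors STAT5A and STAT5B. Leukaemia inhibitory factor (LIF) and ciliary neurotrophic factor act through receptors that share the chain gp130, the product of *Il6st*, which signals mainly through STAT3. CISH, SOCS2 and SOCS3 are induced by STATs and dampen the same receptors. In beta cells, prolactin and placental lactogens signal through the prolactin receptor when islets expand in pregnancy.

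The values were RPKM, reads per kilobase scaled to the mapped reads of a library, and the length behind them was the whole genomic span of a transcript with its introns. RPKM values of different genes are therefore levels per kilobase of span. Recovered depths ran from 50840000 to 60760000 reads, and the estimated reads behind a member's value in 1 library ran from 326 for *Cish* to 13612 for *Prlr*. The correlation of log2 values over transcripts, which are not independent replicates, was 0.980 within each group and 0.927 to 0.939 between the groups. A minimum of 1 RPKM on the mean over libraries left 7867 transcripts, which limma tested on log2(RPKM + 0.5) with Benjamini-Hochberg adjustment at 0.05. Of these, 10.7% were higher and 22.8% lower at 16.8 mM glucose. The added 0.5 RPKM makes a log2 fold change smaller than the ratio of mean RPKM, most of all for low genes. Over these transcripts the log2 fold changes had a median of -0.11, and changes relative to this shift are given where it matters.

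*Prlr* showed the largest difference of the 10 genes. It lies at chr15:10106993-10303504 on the plus strand (mm9, NCBIM37). Its level was 0.875 and 0.858 RPKM at 2.8 mM glucose and 3.71 and 4.63 RPKM at 16.8 mM glucose. The groups did not overlap, and the libraries at low glucose were nearly equal while those at high glucose were more spread. Mean *Prlr* RPKM was 0.866 ± 0.0119 (SD, n = 2) at low and 4.17 ± 0.653 (SD, n = 2) at high glucose, a ratio of 4.81. The log2 fold change was 1.77 (SE 0.11, 95% interval 1.503 to 2.028), with an adjusted p of 1.6e-04 in limma. In the fit of all transcripts with a mean above 0, which is free of the minimum, the adjusted p was 0.0240 in limma. By the size of this change, *Prlr* stood at place 38 of the 2387 genes with a positive log2 fold change. *Prlr* reached the minimum of 1 RPKM only through the high glucose libraries, so the p and the place at that minimum are tied to the difference. All 3 deposited entries of *Prlr* had similar ratios of mean RPKM, at 4.81, 4.91 and 4.61. The span of *Prlr* overlaps part of that of *Agxt2*, a mitochondrial aminotransferase gene on the same strand, whose level was 0.0274 and 0.0327 RPKM at low and 0.176 and 0.184 RPKM at high glucose.

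**Figure D1:**
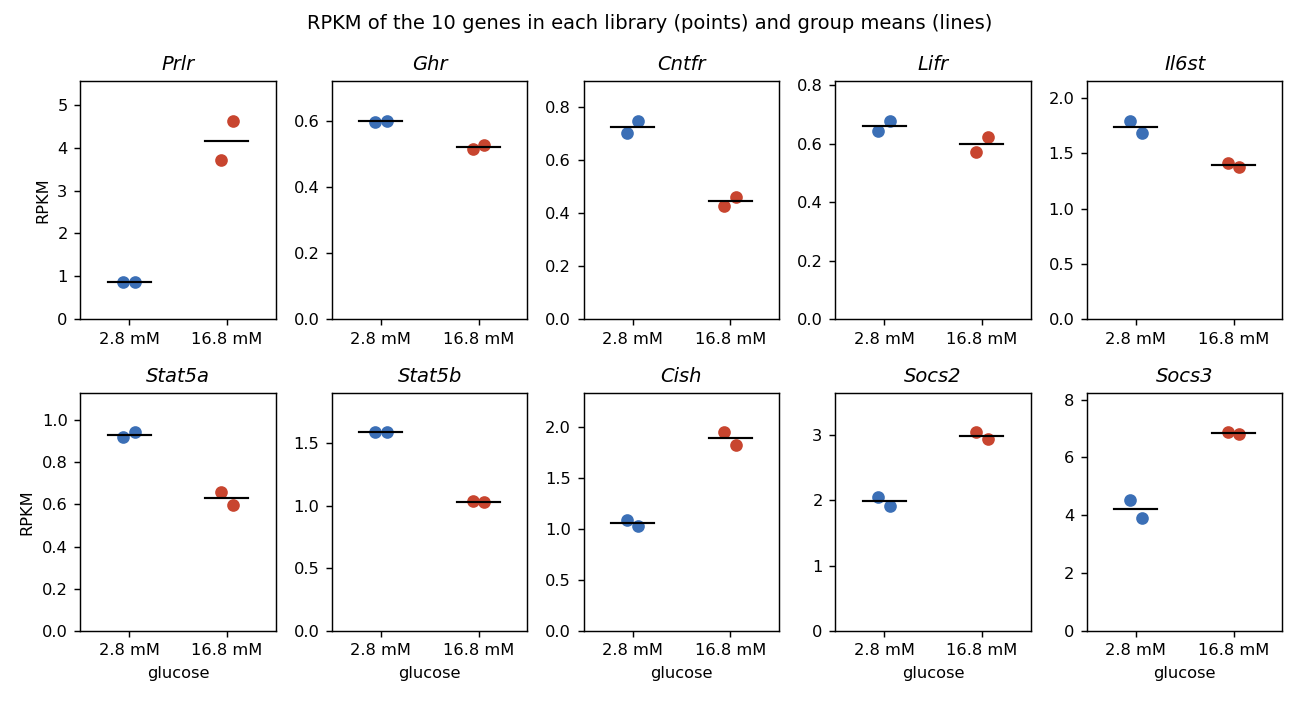
RPKM (y axis, from 0, with its own scale in each panel) of the 10 genes in each library (points) and the group means (lines), at 2.8 mM (blue) and 16.8 mM glucose (red), n = 2 per group. In every panel the points of the groups do not overlap. *Prlr*, *Cish*, *Socs2* and *Socs3* are higher at 16.8 mM and the other 6 are lower.

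The other 4 receptor genes were all at lower RPKM in both libraries at 16.8 mM glucose, and the differences were small beside that of *Prlr*. *Il6st*, for the shared chain gp130 (chr13:113265216-113297068, plus strand), was at 1.80 and 1.69 RPKM at low and 1.41 and 1.38 RPKM at high glucose. The groups did not overlap, but the log2 fold change of -0.24 (SE 0.08, 95% interval -0.43 to -0.05) did not pass in limma (adjusted p = 0.0551). Relative to the median of all transcripts it was -0.13. The call depended on the setting, with adjusted p values from 0.000796 to 0.308 over the alternatives, and the direction held in all of them.

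*Ghr*, *Cntfr* and *Lifr* were under the minimum and were tested in a fit of all 26272 transcripts with a mean above 0. In it 4.56% were called higher and 9.52% lower, and the median log2 fold change was -0.0077. Most of these transcripts were under the minimum, where the added 0.5 RPKM presses changes towards 0. This median is therefore not the shift given above. With each library centred on its median, the log2 fold changes were -0.07 for *Ghr*, -0.34 for *Cntfr* and -0.04 for *Lifr*. *Cntfr*, for the ligand-binding chain of the ciliary neurotrophic factor receptor (chr4:41604529-41644121, minus strand), was at 0.7036 and 0.7495 RPKM at low and 0.428 and 0.463 RPKM at high glucose. The groups did not overlap, and the ratio of mean RPKM was 0.613. *Cntfr* passed in the fit of all transcripts, without centring, with a log2 fold change of -0.38 (SE 0.05) and an adjusted p of 0.0348 in limma. Leaving out any 1 of the 4 libraries ended the call, with adjusted p values between 0.144 and 0.180, and over all its alternatives they ran from 9.8e-05 to 0.180.

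*Ghr*, for the growth hormone receptor (chr15:3267760-3533492, minus strand), was at 0.598 and 0.602 RPKM at low and 0.515 and 0.528 RPKM at high glucose. Its log2 fold change was -0.11 (95% interval -0.22 to 0.01) and did not pass in limma (adjusted p = 0.176). *Lifr*, for the LIF receptor chain that pairs with gp130 (chr15:7079559-7147489, plus strand), was at 0.642 and 0.679 RPKM at low and 0.573 and 0.624 RPKM at high glucose. Its log2 fold change was -0.08 (95% interval -0.23 to 0.07), with an adjusted p of 0.376 in limma. Both intervals include 0. The second deposited entry of *Lifr* went the other way, at 0.171 and 0.188 RPKM at low and 0.190 and 0.215 RPKM at high glucose, and did not pass in limma either (adjusted p = 0.382). *Ghr*, *Lifr* and *Prlr* lie on the same chromosome, with 3.55 Mb between *Ghr* and *Lifr* and 2.96 Mb between *Lifr* and *Prlr*.

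The STAT5 genes were both lower at 16.8 mM glucose. They are neighbours on chromosome 11, 8.626 kb apart and on opposite strands. *Stat5b* (chr11:100642045-100712038, minus strand) was at 1.59 and 1.59 RPKM at low glucose and 1.04 and 1.03 RPKM at high glucose. The groups did not overlap, and the ratio of mean RPKM was 0.651. The log2 fold change was -0.44 (SE 0.07, 95% interval -0.62 to -0.27, adjusted p = 0.00562 in limma), or -0.33 relative to the median of all transcripts.

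*Stat5a* (chr11:100720665-100746483, plus strand) was at 0.919 and 0.943 RPKM at low and 0.661 and 0.597 RPKM at high glucose, again without overlap and with a ratio of mean RPKM of 0.676. It was under the minimum, and in the fit of all transcripts its log2 fold change was -0.34 (SE 0.05, adjusted p = 0.0417 in limma). With each library centred on its median it was -0.30. Leaving out any 1 library ended the call (adjusted p = 0.140 to 0.202), and over all its alternatives the adjusted p ran from 0.000146 to 0.202. Only the far end of *Stat5a*, which stops at 100746483, overlaps the end of *Stat3* (chr11:100746412-100800854) on the other strand. *Stat3* was at 3.73 and 3.71 RPKM at low and 4.92 and 4.53 RPKM at high glucose, opposite in direction to *Stat5a*, and whether the authors' counts kept the strands apart is not given in the sources used here.

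The feedback inhibitors went the other way from the STAT5 genes, and all 3 passed. Their promoter windows are shown because CISH, SOCS2 and SOCS3 are textbook STAT targets, and the window of *Prlr* because that gene had the largest difference. The windows are from RefSeq (build GRCm38.p6, which is not the build of the gene positions above), and 9 of the 10 genes had at least 1, with 20 windows in all. *Socs2* had no entry. Each window runs from 250 bases before to 50 bases after an annotated start, of which the last 20 are not printed. The search was for the STAT core motif TTCNNNGAA, which reads the same on both strands, and matches are in capitals.
Cish, chr9:107296409-107296688, plus strand: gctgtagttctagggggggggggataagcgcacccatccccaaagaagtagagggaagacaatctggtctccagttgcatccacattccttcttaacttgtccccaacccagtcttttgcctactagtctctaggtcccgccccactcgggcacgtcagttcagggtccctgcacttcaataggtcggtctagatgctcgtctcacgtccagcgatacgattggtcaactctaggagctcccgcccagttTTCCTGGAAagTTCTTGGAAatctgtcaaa
Socs3, chr11:117969337-117969616, minus strand: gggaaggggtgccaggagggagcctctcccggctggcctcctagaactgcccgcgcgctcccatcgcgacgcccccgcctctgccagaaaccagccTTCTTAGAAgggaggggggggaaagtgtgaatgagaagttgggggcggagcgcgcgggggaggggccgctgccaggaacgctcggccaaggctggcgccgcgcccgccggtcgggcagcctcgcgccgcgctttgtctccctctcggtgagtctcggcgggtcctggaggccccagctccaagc
Prlr, the middle of its 3 annotated starts, chr15:10223656-10223935, plus strand: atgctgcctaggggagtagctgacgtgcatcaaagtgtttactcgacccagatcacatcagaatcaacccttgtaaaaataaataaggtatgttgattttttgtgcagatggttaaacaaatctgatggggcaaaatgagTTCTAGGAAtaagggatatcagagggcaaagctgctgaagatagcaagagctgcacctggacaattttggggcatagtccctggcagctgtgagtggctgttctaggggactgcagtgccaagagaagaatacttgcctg
The *Cish* window held 2 matches, beginning at bases 1 and 12 from the start, and 0.457% of all 32851 windows in the table held 2 or more. The *Socs3* window held 1 match, which began 154 bases before the start. That of *Prlr* began 110 bases before its middle start, and the other *Prlr* windows held none. At least 1 match was in 8.30% of all windows and in 3 of the 20 windows of the members. No window of *Ghr*, *Cntfr*, *Lifr*, *Il6st*, *Stat5a* or *Stat5b* held these letters. A match is a description of the sequence and was not read as a binding site.

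*Cish*, the inhibitor of the family most tied to STAT5 (chr9:107198357-107205115, plus strand), was at 1.09 and 1.03 RPKM at low and 1.95 and 1.83 RPKM at high glucose. The groups did not overlap, and the ratio of mean RPKM was 1.78. The log2 fold change was 0.61 (SE 0.08, 95% interval 0.43 to 0.80, adjusted p = 0.00215 in limma). Of the annotated transcripts on the opposite strand, *Gm17041* lies within the span of *Cish* and *Gm17040* overlaps part of it; their levels were not analysed here.

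*Socs2*, which restrains growth hormone signalling (chr10:94847996-94879814, minus strand), was at 2.06 and 1.91 RPKM at low and 3.04 and 2.94 RPKM at high glucose. The ratio of mean RPKM was 1.51, and the log2 fold change was 0.49 (SE 0.09, 95% interval 0.29 to 0.70, adjusted p = 0.00654 in limma). *Socs2* had 4 deposited entries, and their ratios of mean RPKM lay between 1.51 and 1.56. *Socs3*, which binds gp130 and restrains STAT3 signalling (chr11:117827393-117831361, minus strand), was at 4.51 and 3.92 RPKM at low and 6.87 and 6.83 RPKM at high glucose. Its groups did not overlap, the ratio of mean RPKM was 1.62 and the log2 fold change was 0.64 (SE 0.11, 95% interval 0.39 to 0.90, adjusted p = 0.00562 in limma). Per kilobase of span, *Socs3* was the highest of the 10 genes in every library.

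**Figure D2:**
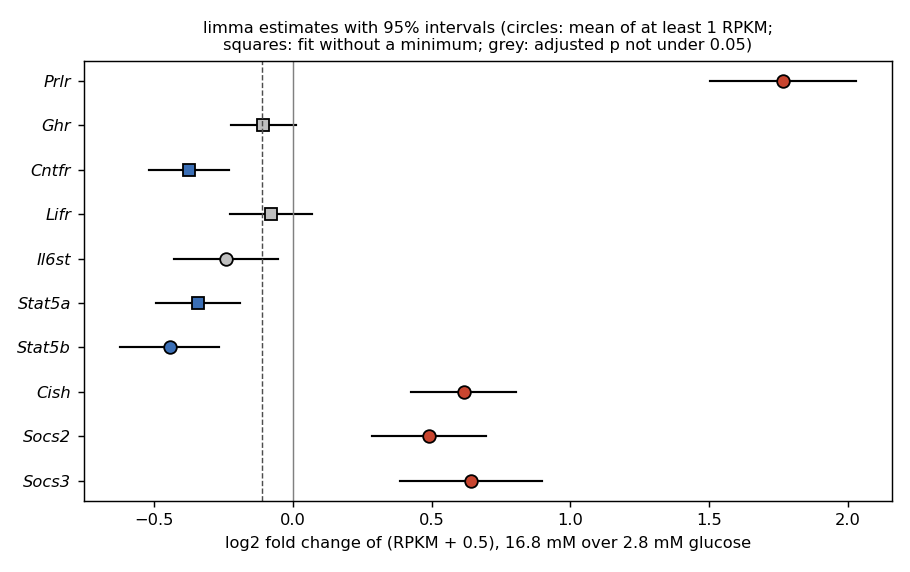
log2 fold change of (RPKM + 0.5), 16.8 mM over 2.8 mM glucose (x axis), for the 10 genes, with 95% limma intervals as bars. Circles are genes at or above the 1 RPKM minimum and squares genes tested in the fit without a minimum. Red is higher and blue lower at an adjusted p under 0.05, grey did not pass, and the dashed line is the median of all transcripts tested at the minimum, -0.11. *Prlr* stands apart at 1.77, and the feedback inhibitors lie between 0.49 and 0.64.

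Of the 10 genes, 6 were tested at the minimum, of which 4 passed higher, 1 lower and 1 did not pass, beside 10.7% higher and 22.8% lower of all transcripts tested. In the fit without a minimum 4 passed higher, 3 lower (*Cntfr*, *Stat5a* and *Stat5b*) and 3 did not, beside 4.56% and 9.52% of all transcripts. All 10 genes had groups that did not overlap, 4 higher and 6 lower. Among the 9411 genes with a mean of at least 0.5 RPKM, 21.2% had higher and 50.1% lower values without overlap at 16.8 mM glucose, so lower values without overlap were common in this table. Other deposited entries of a gene gave ratios close to that of the entry used, except for *Lifr*.

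**Figure D3:**
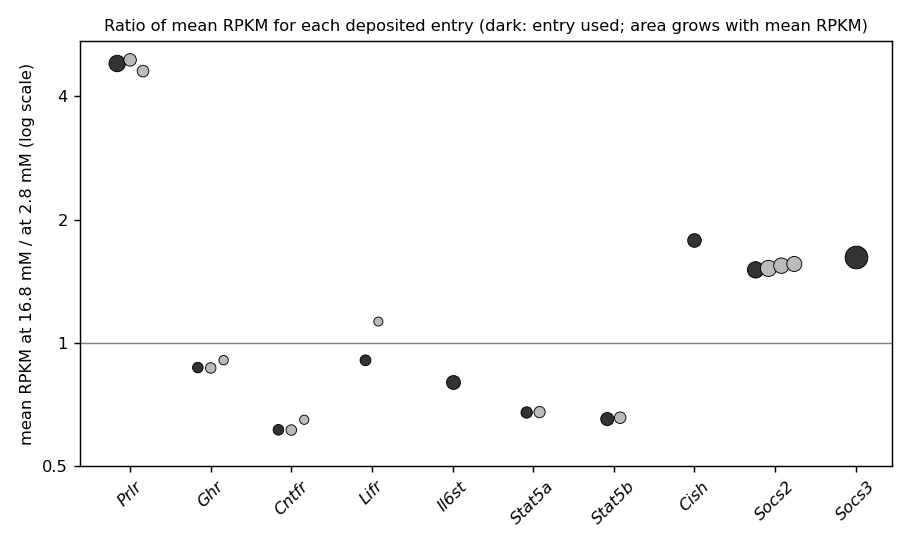
Ratio of mean RPKM at 16.8 mM over 2.8 mM glucose (log scale, y axis) for each deposited entry of the 10 genes. Dark points are the entries used, grey points the others, and the area grows with mean RPKM. The 3 entries of *Prlr* lie between 4.61 and 4.91, and *Lifr* has entries on both sides of 1, at 0.906 and 1.13.

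The remaining genes of the pathway were listed by role, 82 genes beside the 10. Of these, 26 reached the minimum, of which 7 were higher and 4 lower in limma at 16.8 mM glucose, beside 10.7% and 22.8% of all transcripts. Their median log2 fold change was -0.13, close to the median of -0.11 of all transcripts. In the fit without a minimum 81 were tested, 6 higher and 7 lower, beside 4.56% and 9.52% of all transcripts.

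None of the 10 ligand genes reached the minimum. *Prl* was listed at 0 in all 4 libraries and *Gh* at 0.0523 RPKM or less, both named after their values were seen. In the fit without a minimum *Lif* alone passed, at 0.407 and 0.316 RPKM at low and 0.671 and 0.633 RPKM at high glucose (log2 fold change 0.42, adjusted p = 0.0457 in limma). Other cytokine receptor genes, most of them class I, gave no call in limma, either among the 3 of 19 that reached the minimum or among all 19 without one. At an unadjusted p under 0.05 there was 1 lower at the minimum, and 1 higher and 1 lower without it. Voom on reads reconstructed from RPKM called 2 higher and 1 lower of 15, beside 1900 higher and 4193 lower of all 14409 transcripts it tested. Of the 4 interferon receptor genes, *Ifnar1* was the only one to reach the minimum and did not pass (adjusted p = 0.191 in limma). *Ifnar2*, *Ifngr1* and *Ifngr2* did not pass without a minimum either, no gene of the list had an unadjusted p under 0.05, and voom called 1 higher.

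Of the 4 Janus kinase genes, whose products carry the signal from receptor to STAT, 1 passed higher, 1 passed lower and the others did not pass. *Jak2*, the kinase bound to the prolactin and growth hormone receptors, was at 0.641 and 0.563 RPKM at low and 0.427 and 0.362 RPKM at high glucose. The groups did not overlap, but in the fit without a minimum *Jak2* did not pass (log2 fold change -0.30, adjusted p = 0.0708 in limma). *Jak1* was lower, at 1.27 and 1.22 RPKM against 0.870 and 0.842 RPKM at high glucose (log2 fold change -0.36, SE 0.07, adjusted p = 0.0108 in limma). *Jak3*, best known from lymphocytes, was higher, at 0.864 and 0.911 RPKM against 1.99 and 1.62 RPKM at high glucose (log2 fold change 0.73, SE 0.10, adjusted p = 0.00245 in limma). *Jak3*, like *Irs2* below, reached the minimum only through the high glucose libraries, and *Jak1* only through the low glucose libraries. Their calls at that minimum are therefore tied to the difference. Without a minimum the adjusted p in limma was 0.0348 for *Jak1*, 0.0362 for *Jak3* and 0.0240 for *Irs2*. *Tyk2* was at 0.834 and 0.813 RPKM at low and 0.731 and 0.688 RPKM at high glucose and did not pass (adjusted p = 0.160 in limma without a minimum).

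Among the other STAT genes *Stat3* was higher at 16.8 mM glucose (log2 fold change 0.31, SE 0.10, adjusted p = 0.0477 in limma), a call that leaving out any 1 library ended and that reached an adjusted p of 0.206 at most over its alternatives. *Stat6* did not pass (0.19, adjusted p = 0.174 in limma), and *Stat2* and *Stat4* did not pass in the fit without a minimum. Among the other SOCS genes *Socs7* was lower, at 1.75 and 1.63 RPKM against 1.18 and 1.09 RPKM at high glucose (log2 fold change -0.42, SE 0.08, adjusted p = 0.00897 in limma). *Socs6* was at 0.812 and 0.745 RPKM against 0.555 and 0.519 RPKM and passed in the fit without a minimum (adjusted p = 0.0493 in limma). *Socs1*, *Socs4* and *Socs5* did not pass. *Socs2* and *Socs3* were thus higher while *Socs6* and *Socs7* were lower.

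Among 15 phosphatase, adaptor and PIAS genes, *Irs2*, an adaptor of the insulin and cytokine receptors, was higher, at 0.740 and 0.670 RPKM against 2.09 and 1.87 RPKM at high glucose (log2 fold change 1.04, SE 0.09, adjusted p = 0.000453 in limma). *Pias3*, an inhibitor of STAT3, was lower, at 2.85 and 2.73 RPKM against 1.83 and 1.77 RPKM (log2 fold change -0.52, SE 0.08, adjusted p = 0.00487 in limma). The other 5 of the 7 tested did not pass. Without a minimum *Pias2* was also lower, at 0.661 and 0.680 RPKM against 0.499 and 0.468 RPKM (adjusted p = 0.0495 in limma). Voom called 4 higher and 3 lower of 15, beside 1900 higher and 4193 lower of all 14409 transcripts it tested.

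Of 12 genes listed as prolactin or STAT5 targets 5 reached the minimum, 1 higher and 1 lower, beside 10.7% and 22.8% of all transcripts. The list does not say which targets are raised and which are lowered, so these counts are not a reading of STAT5 signalling. Without a minimum 1 was higher (*Tph2*, at 0.0287 RPKM or less in every library, adjusted p = 0.0267 in limma) and 2 were lower (*Bcl6*, adjusted p = 0.0439, and *Pim3*). Voom called 2 higher and 5 lower of 11, beside 1900 higher and 4193 lower of all 14409 transcripts it tested. The kinase gene *Pim2* was at 7.07 and 6.86 RPKM at low and 9.72 and 8.66 RPKM at high glucose (log2 fold change 0.37, adjusted p = 0.0406 in limma), and leaving out any 1 library ended its call (adjusted p up to 0.212). *Pim3*, a related kinase gene, was lower, at 7.69 and 6.67 RPKM against 4.63 and 4.02 RPKM (log2 fold change -0.67, adjusted p = 0.0068 in limma). *Tph1*, the serotonin synthesis gene that prolactin signalling induces in islets in pregnancy, was at 0.0093 RPKM or less in every library, and was named after its values were seen.

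Of 8 genes listed as STAT3 targets 5 were tested and 3 were higher, beside 10.7% higher and 22.8% lower of all transcripts. *Cebpb* was lower, at 14.6 and 10.8 RPKM against 9.80 and 8.77 RPKM, and did not pass (adjusted p = 0.0813 in limma). Without a minimum 2 of 8 were higher, beside 4.56% higher and 9.52% lower of all transcripts. Voom called 4 higher and 1 lower of 7, beside 1900 higher and 4193 lower of all 14409 transcripts it tested. *Cebpd*, an acute-phase transcription factor gene, was at 2.77 and 3.06 RPKM at low and 16.6 and 13.6 RPKM at high glucose (log2 fold change 2.18, SE 0.13, adjusted p = 0.000119 in limma). *Junb*, an immediate early gene, was at 10.5 and 8.63 RPKM against 26.4 and 22.1 RPKM (log2 fold change 1.30, SE 0.15, adjusted p = 0.00139 in limma). *Mcl1*, a survival gene of the BCL2 family, was at 11.6 and 10.4 RPKM against 15.95 and 13.97 RPKM (log2 fold change 0.42, adjusted p = 0.0418 in limma), a call that was lost without a minimum and without 3 of the 4 libraries in turn (adjusted p up to 0.214). These genes answer to many signals besides STAT3.

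**Figure D4:**
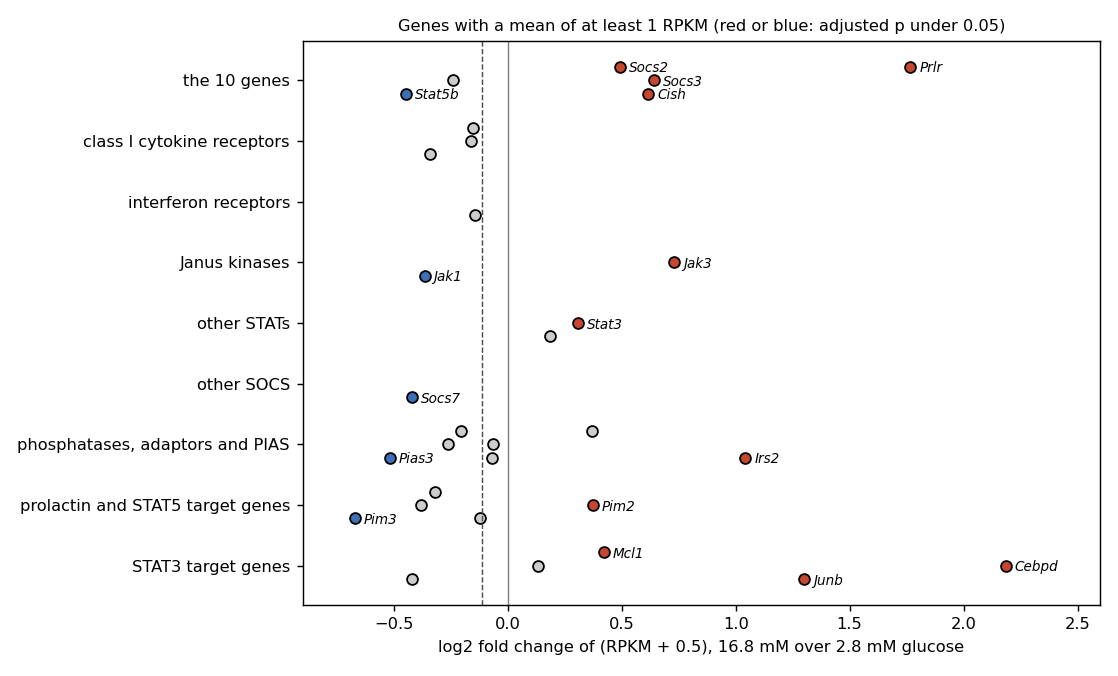
log2 fold change of (RPKM + 0.5), 16.8 mM over 2.8 mM glucose (x axis), for genes at or above the 1 RPKM minimum, in rows by role. Red is higher and blue lower at an adjusted p under 0.05, grey did not pass, and the dashed line is the median of all transcripts tested, -0.11. *Cebpd* at 2.18 and *Prlr* at 1.77 lie farthest to the right, and the other calls lie between -0.67 and 1.30.

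Markers of the islet cell types were read beside these results. The islet label was checked on the beta cell genes. Their summed level was 22936 and 20586 RPKM at low and 43896 and 41148 RPKM at high glucose. In limma 6 of the 8 were higher, of which 4 did not pass with quantile normalization. That scaling gives rows of the same rank the same value in every library. It therefore cannot show a change in the highest rows, and it left *Ins2* at a log2 fold change of 0. The summed level of the beta cell genes moved in the direction of *Prlr* and of the feedback inhibitors, and its part in their differences was not tested. Most of that sum was *Ins2*, at 18136 and 15943 RPKM at low and 30018 and 27396 RPKM at high glucose. *Slc2a2* and *Nkx6-1* were higher without passing (adjusted p = 0.0607 and 0.126 in limma). These 3 markers were named after their values were seen. Summed alpha cell markers ranged from 1690 to 2207 RPKM at low and 1532 to 2165 RPKM at high glucose, and delta and PP cell markers from 1176 to 1557 and from 1521 to 1841 RPKM. Exocrine and duct markers were at 61.1 and 177 RPKM at low and 151 and 328 RPKM at high glucose. Their part in the results was not tested. The sums of endothelial markers lay between 2.78 and 4.47 RPKM in all libraries, of leukocyte markers between 10.02 and 14.30 RPKM and of stromal and glial markers between 2.79 and 4.50 RPKM. No marker was listed at 0 in any library. At the minimum, limma called no gene in the lists other than the beta cell list. At an unadjusted p under 0.05 these held 4 exocrine markers higher, 1 alpha cell marker higher and 1 lower, and 1 delta and PP cell marker higher. Voom called all 6 exocrine markers, 3 endothelial, 1 alpha, 1 delta and PP and 1 leukocyte marker higher, and 1 alpha and 1 stromal and glial marker lower. Of all 14409 transcripts it tested, it called 1900 higher and 4193 lower.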

How the data were processed

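Libraries were prepared from RNA of pooled islets with a TruSeq RNA kit. The authors deposited 1 table of RPKM values with 4 columns of sample values, all used. The submitters' processing notes name STAR, bedtools, DESeq and mm9, with versions not given in the sources used here. The deposited RPKM values came out as whole reads (within 0.07 reads) for 80.6% to 81.9% of low multi-exon entries over the genomic span, against 11.1% to 12.3% over exons, so the length was the span, and whether reads in introns were counted was not tested. PCR duplicates cannot be told apart.

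Values were taken to log2(RPKM + 0.5). As the table holds no counts, the count test of the planned design was not used and its limma branch was: a minimum mean of 1 RPKM, identical entries used once, a variance trend and Benjamini-Hochberg adjustment at 0.05 (limma 3.58.1, R 4.3.3). Tables and figures were made with pandas 2.3.3, numpy 2.4.6 and matplotlib 3.10.9 under Python 3.11.15. Gene positions came from GENCODE on mm9 (NCBIM37), promoters from RefSeq tables. Tested on simulated data with 200 changed transcripts among 7867, the fit called 98% of them, and 6.67% of its calls were unchanged transcripts. True log2 changes of 1 and 2 had medians of 0.87 and 1.76. The simulated noise was independent and drawn from the fit's own variances, without a shift of the median, and the real table had 2628 calls. These shares therefore check the code and do not measure the error of the calls made here.

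Members and lists were chosen with earlier results of these data known. Named were all members, every gene of lists of 5 or fewer, up to 4 genes past the threshold in each direction of longer lists, and genes overlapping a member, apart from an item not reported here. Alternatives were no variance trend, other scalings, minimums, added RPKM and thresholds, 1 entry per gene, the replicate block, voom on reads reconstructed from RPKM, span and depth (mean of at least 20 reads), and leaving out each library. Chosen after the data were seen were the settings for members under the minimum and the ratio of mean RPKM.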

Additional observations from a re-analysis of the deposited data

How the results depend on the processing

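*Prlr* (log2 fold change 1.46 to 2.26), *Cish* (0.49 to 0.83), *Socs2* (0.42 to 0.59), *Socs3* (0.55 to 0.73) and *Stat5b* (-0.62 to -0.35) kept their direction and their call in all alternatives run. No value for *Prlr* exists with at least 1 RPKM in every library, and no result turned its direction. *Il6st* passed at -0.16 with quantile normalization, -0.16 with median centring, -0.24 with at least 1 RPKM in every library, -0.24 with the replicate block, and -0.32 with voom without and with the block. *Ghr* passed with voom and the block only (-0.20). The cause was not tested.

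The 2628 changed transcripts (838 higher, 1790 lower of 7867) became 1191 (430 and 761) at a threshold of 0.01 and 6093 (1900 and 4193 of 14409) with voom. The share of calls that were higher was 31.9%, against 42.3% with quantile normalization (1576 and 2154) and 44.1% with median centring (1662 and 2103), which take out the shift of the median. Without low glucose replicate 1 it was 42.5% (904 and 1221) and without high glucose replicate 2 it was 42.0% (766 and 1059). Of the 6 members tested at the minimum 5 were called, against 8 of 10 (4 higher, 4 lower) with voom. Of the 26 pathway genes tested at the minimum 11 were called, against 7 of 26 (4 and 3) at 0.01 and 31 of 72 (17 and 14) with voom.

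The labels number the libraries of both groups, but deviations of same-numbered libraries correlated at 0.31 over only 2 pairs and no label says that the numbers mark a shared source, so the pairing was not taken as given. With the replicate block 4067 transcripts changed (1232 and 2835), 6 of 6 members and 18 of 26 pathway genes (8 and 10). Voom with the block gave 8320 transcripts (2652 and 5668), 9 of 10 members (4 and 5) and 41 of 72 pathway genes (19 and 22). In the fit without a minimum the block ended the calls of *Cntfr* (log2 fold change -0.38, adjusted p = 0.0512 in limma) and *Stat5a* (-0.34, 0.0581).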
